A study of Mus musculus with 9 samples.

Results

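The growth hormone and IGF axis of the liver was followed through 9 genes, which were taken by name from a list of receptor, ligand, binding protein, and feedback genes: Ghr, Igf1, Igfals, Igfbp1, Igfbp2, Igfbp3, Igfbp4, Socs2, and Cish. All 9 were among the 24341 genes of the deposited expression table, and all 9 passed the filter on low values. The livers came from 9 C57BL/6 mice of wild-type genotype, each sampled 48 hours after 1 of 2 treatments. Mice 2, 5, and 9 received anti-CD40, the rat antibody FGK45 that activates the immune receptor CD40. Mice 3, 4, 7, 8, 11, and 12 received PBS and are called control. The labels give neither age nor sex. In general the study left out treated mice whose blood B cells did not drop, so the treated animals may have been selected for a response. The hepatocyte genes Alb, Ttr, and Apoa2 were detected in every mouse. Xist, which is transcribed from the inactive X chromosome, had an FPKM of 2.23 to 3.82 in the 9 mice, while the 4 Y-linked genes examined, Ddx3y, Eif2s3y, Kdm5d, and Uty, were listed at the floor of 0.01 in every mouse. These are the values of female mice.

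Growth hormone from the pituitary binds its receptor on hepatocytes and activates the kinase JAK2, which phosphorylates the transcription factor STAT5B. STAT5B drives transcription of Igf1, of Igfals, and of the feedback genes Socs2 and Cish, whose products dampen the receptor. Hepatocytes are the main source of IGF1 in blood, where most of it travels in a complex with IGFBP3 and the acid labile subunit encoded by Igfals. The remaining binding proteins hold smaller amounts of IGF1. Transcription of Igfbp1 in the liver is held down by insulin, which removes the FOXO1 factor from the nucleus. Loss of growth hormone action with low IGF1 and high IGFBP1 in blood is known from fasting and from severe inflammation.

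Promoter windows of 300 bases, from 250 bases before to 50 bases after an annotated start, were taken from RefSeq on assembly GRCm38.p6, and 8 of the 9 genes matched with 12 windows in all, Socs2 being the exception. They were searched for TTCNNNGAA, the letters that STAT factors recognize, which read the same on both strands, and for AAAACAA on either strand, the core of the element through which FOXO1 acts. The first motif was in 8.30% of 32851 windows of all genes and in windows of 2 members, Cish and Igfals. The second was in 9.02% of all windows and in a window of 1 member, Igfbp1, and it was searched after the values were seen. Stretches that hold these letters in the 3 genes, each 250 bases of the plus strand, are shown because these genes stand for the feedback, carrier, and insulin-regulated arms of the axis. Capitals mark TTCNNNGAA in Cish and Igfals and AAAACAA in Igfbp1.
Cish, chr9:107296439-107296688: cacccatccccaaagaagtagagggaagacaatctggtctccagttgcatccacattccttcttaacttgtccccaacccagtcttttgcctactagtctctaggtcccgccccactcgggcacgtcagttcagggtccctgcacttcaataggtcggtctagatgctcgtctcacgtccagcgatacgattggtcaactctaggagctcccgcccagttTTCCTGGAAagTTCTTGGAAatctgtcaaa
Igfals, chr17:24877981-24878230: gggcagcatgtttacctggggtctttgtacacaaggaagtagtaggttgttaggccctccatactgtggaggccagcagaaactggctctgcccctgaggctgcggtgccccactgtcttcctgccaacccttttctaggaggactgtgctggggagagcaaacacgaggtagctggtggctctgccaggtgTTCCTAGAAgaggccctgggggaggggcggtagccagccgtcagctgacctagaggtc
Igfbp1, chr11:7197537-7197786: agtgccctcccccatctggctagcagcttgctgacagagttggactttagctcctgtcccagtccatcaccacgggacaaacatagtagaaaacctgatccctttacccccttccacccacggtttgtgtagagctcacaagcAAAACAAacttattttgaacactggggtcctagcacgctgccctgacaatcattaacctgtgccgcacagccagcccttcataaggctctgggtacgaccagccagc
In Cish the matches were TTCCTGGAA from 107296659 to 107296667 and TTCTTGGAA from 107296670 to 107296678, within the last 30 bases shown, which follow the RefSeq start. In Igfals the match shown was TTCCTAGAA from 24878173 to 24878181, and the window of another RefSeq start of the gene, from 24877594 to 24877893, held TTCTCAGAA. The remaining Igfals window, from 24878497 to 24878796, held no match. It is the window that covers 24878770, where Igfals starts in the deposited expression table. The match in Igfbp1 was AAAACAA from 7197680 to 7197686. These are matches of letters and no measurement of binding.

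The RNA was read from the 3′ end of transcripts. The deposited unit is FPKM, by name fragments counted per kilobase of a transcript and per number mapped. Division by transcript length makes levels of different genes not comparable in such data, so levels are compared here within a gene. Fold changes are on the log2(FPKM + 0.1) scale, which understates changes of low genes. The test by limma took the 13807 genes whose FPKM averaged 0.1 or more, and a gene was called at a Benjamini-Hochberg adjusted p under 0.05. Read totals are not given, so the depth is unknown. Steps between low values put the depth of each mouse at 0.87 to 1.13 times the geometric mean of the 9. Serum amyloid genes Saa1, Saa2, and Saa3 made up 25.4% to 25.9% of the summed FPKM after anti-CD40 and 0.0449% to 0.38% in controls. Cell type markers moved with treatment as well. Their sums are led by the genes of highest FPKM, among hepatocyte markers Apoa2 with a control mean of 25775. The sums therefore do not measure cell content. The summed FPKM of 10 hepatocyte markers was 34527 to 40389 after anti-CD40 and 46742 to 96223 in controls, with 7 lower and 3 higher, that of 6 neutrophil markers was 4204 to 5185 and 18.1 to 152, all 6 higher, and that of 5 Kupffer cell markers was 37.2 to 48.1 and 268 to 425, all 5 lower. Of the remaining lists, all 6 monocyte and macrophage markers and all 4 B cell markers rose, as did 4 of 5 T cell and 2 of 5 cholangiocyte markers, while 2 of 6 stellate cell and fibroblast markers rose and 2 fell. None of 4 erythroid or 5 pancreatic enzyme genes was called. The summed FPKM of the enzymes nevertheless reached 531 in anti-CD40 mouse 5, against 69.4 to 189 in controls. The enzyme gene Prss2 was 102 in that mouse, and 0.01 and 0.582 in mice 2 and 9.

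Of the 9 genes, 7 were called, and the groups did not overlap in any of these 7. Igfbp1 rose, while Ghr, Igf1, Igfals, Igfbp2, Igfbp3, and Igfbp4 fell. Socs2 and Cish, the feedback genes, were not called. Among all genes tested, 45.1% were called, 23.5% higher and 21.7% lower, and the groups did not overlap in 42.4%, 22.7% higher and 19.6% lower. Each of the 7 reached the smallest p that the exact permutation test over 84 splits of the 9 mice can give, 0.0238 (2-sided). Any gene whose groups do not overlap must reach this p, so it adds nothing to the lack of overlap. With each mouse left out in turn, all 7 stayed called. In RNA from whole liver, fewer cells of a type and less RNA per cell cannot be told apart.

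**Figure D1:**
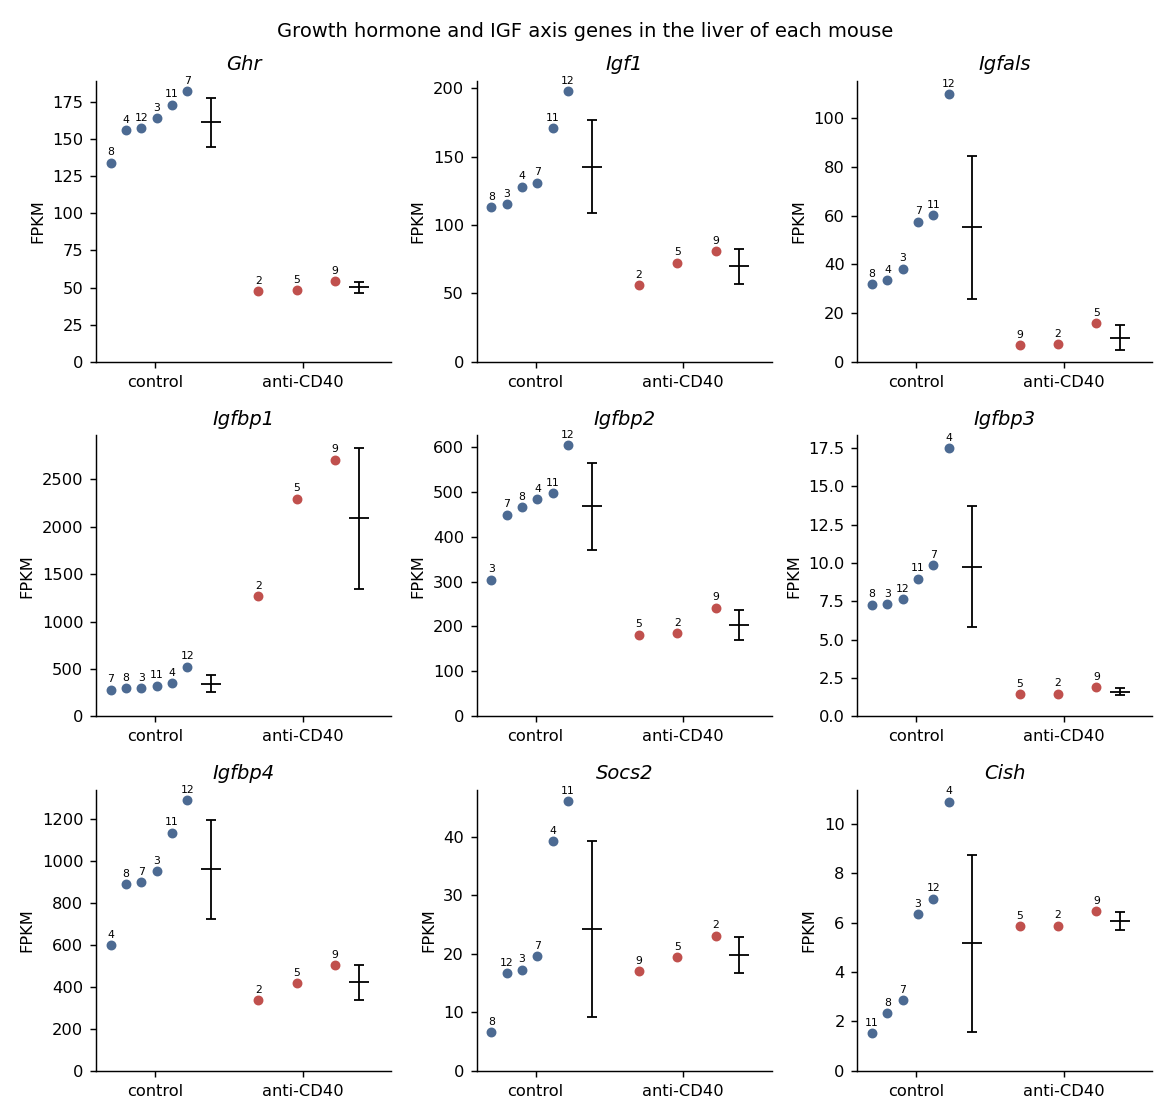
FPKM of each of the 9 genes in each liver, with every vertical axis starting at 0. Blue points are the 6 control mice and red points the 3 anti-CD40 mice, numbered as in the text and sorted by value, and the bars give the mean with the SD. The red points lie apart from the blue points in 7 genes, above them in Igfbp1 and below them in the other 6, and inside the range of the blue points in Socs2 and Cish.

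Ghr, the receptor through which the liver senses growth hormone, spans 3317755 to 3583352 on chromosome 15 of mm10. Livers of anti-CD40 mice 2, 5, and 9 had an FPKM of 47.4, 48.4, and 54.6. In control mice the lowest value was 134, the median 161, and the highest 182. The 3 treated livers sat close together and well below the lowest control. The means were 50.2 ± 3.9 (SD, n = 3) and 161 ± 16.6 (SD, n = 6), so that the treated level was 31.2% of control. This gave a log2 fold change of -1.68 (SE, the standard error, 0.12, 95% interval -1.93 to -1.42, limma adjusted p = 2.71e-06).

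Downstream of the receptor, Jak2 rose, Stat5b fell, and Stat5a was not called. Jak2, which encodes the kinase bound to the receptor, rose to 8.29, 6.89, and 6.52 in mice 2, 5, and 9, from 3.19 to 4.66 in controls with a median of 4.16. Its groups did not overlap (log2 fold change 0.85, SE 0.16, limma adjusted p = 0.00152). Markers of neutrophils, monocytes, and macrophages rose in the same livers, and their part in the rise of Jak2 was not tested. Stat5b, the main STAT5 gene of hepatocytes, was 13.2, 11.8, and 10.9 in the treated mice and 14.5 to 20.8 in controls with a median of 18.5. It fell by 0.57 on the log2 scale (SE 0.14, limma adjusted p = 0.00775). Stat5a was not called, with a log2 fold change of -0.33 (SE 0.15, limma adjusted p = 0.0949) and overlapping groups. The directions of both STAT5 genes depend on scaling: when each mouse was centred on the hepatocyte markers, the log2 fold change was 0.21 for Stat5b (adjusted p = 0.476) and 0.45 for Stat5a (adjusted p = 0.0429), and the median of all genes moved from 0.0056 to 0.78. Relative to that median both were lower. Stat5b also lost its call upon removal of Saa1 to Saa3 with rescaling of the mice (adjusted p = 0.312), a scale that likewise raised the median of all genes.

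Igf1, the ligand of the axis, lies on chromosome 10 from 87859056 to 87937047. Its FPKM was 55.9, 72.5, and 81.2 in mice 2, 5, and 9 after anti-CD40, and in control mice the lowest, median, and highest values were 113, 129, and 198. Every treated liver was below every control, with mice 11 and 12 standing highest among the controls. The means were 69.9 ± 12.9 (SD, n = 3) and 143 ± 34.2 (SD, n = 6), a treated level of 49% of control. The log2 fold change was -1.01 (SE 0.20, 95% interval -1.46 to -0.57, limma adjusted p = 0.00205). Of the 10 hepatocyte markers, 7 fell as well and 3 rose, with log2 fold changes from -2.43 for Alb to 0.88 for Fgb. Centring each mouse on those 10 markers left a log2 fold change of -0.24 for Igf1 (adjusted p = 0.221). Because the markers moved in both directions, their mean need not follow the hepatocyte content of a liver. The log2 ratio of Igf1 to Ghr within a mouse, which does not depend on scaling, was 0.24, 0.58, and 0.57 after anti-CD40 and -0.52 to 0.33 in controls. The difference of 0.66 (SE 0.20) did not pass (exact permutation p = 0.0476, adjusted over the 6 gene pairs compared 0.0714), and the values overlapped at control mouse 12. Igf1os, an antisense gene that is not in the table, overlaps the first part of Igf1 in the annotation, and the use of strand in counting is not stated in the sources used here.

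Both partners that hold IGF1 in its large complex fell. Igfals, which encodes the acid labile subunit made by hepatocytes, lies on chromosome 17 from 24878770 to 24882008. Its FPKM was 7.19, 15.8, and 6.94 in mice 2, 5, and 9, against a lowest, median, and highest control of 31.9, 48, and 110. Mouse 5 was the highest treated liver, still below the lowest control, and control mouse 12 stood far above the other controls. Mouse 5 is also the liver with high pancreatic enzyme values, and a link between the 2 was not tested. The means were 9.97 ± 5.03 (SD, n = 3) and 55.4 ± 29.6 (SD, n = 6), 18% of control. The log2 fold change was -2.43 (SE 0.40, 95% interval -3.32 to -1.53, limma adjusted p = 0.000713).

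Igfbp3, which encodes the main IGF carrier of blood and is expressed in the liver largely by nonparenchymal cells, lies on chromosome 11 from 7206091 to 7213923. Its FPKM was 1.49, 1.46, and 1.91 in mice 2, 5, and 9, and 7.28, 8.31, and 17.5 at the lowest, median, and highest control. The steps between low values correspond to 74, 68, and 83 reads after anti-CD40 and 278 to 807 reads in controls, as the smallest whole numbers that fit. The treated livers were nearly equal to one another, and control mouse 4 was highest. The means were 1.62 ± 0.252 (SD, n = 3) and 9.76 ± 3.92 (SD, n = 6), 16.6% of control, for a log2 fold change of -2.45 (SE 0.26, 95% interval -3.03 to -1.87, limma adjusted p = 3.81e-05). Nonparenchymal markers moved beside it: all 5 Kupffer cell markers fell, with Clec4f at the floor of 0.01 in anti-CD40 mouse 2, whereas of 6 markers of sinusoidal endothelium 2 rose, 2 fell, and 2 were not called, with a summed FPKM of 72 to 76.1 against 74.1 to 98. Their part in the fall of Igfbp3 was not tested.

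Within each mouse, Igfals was set against Igf1 and Igfbp3 against Igfals. The log2 ratio of Igfals to Igf1 was -2.94, -2.19, and -3.53 in mice 2, 5, and 9, and between -1.93 and -0.84 in controls. Igfals thus fell more than Igf1, by a difference of -1.41 on the log2 scale (SE 0.35), or 2.66-fold (exact permutation p = 0.0238, adjusted over the 6 pairs 0.0476). For Igfbp3 against Igfals the difference was -0.03 (SE 0.64, exact permutation p = 0.952), with overlapping values from -3.84 in control mouse 12 to -0.94 in control mouse 4. That spread was too wide to show whether the carrier and the subunit fell by different amounts.

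Igfbp1, a binding protein gene under insulin control, lies on chromosome 11 from 7197787 to 7202546, 3544 bases from Igfbp3. It moved in the opposite direction to its neighbor. Its FPKM was 1267, 2299, and 2709 in mice 2, 5, and 9. The lowest, median, and highest controls were 284, 311, and 525. Even mouse 2, the lowest treated liver, was above control mouse 12, which stood apart from the other controls. The means were 2092 ± 743 (SD, n = 3) and 345 ± 90.9 (SD, n = 6). The log2 fold change was 2.56 (SE 0.26, 95% interval 1.99 to 3.13, limma adjusted p = 2.65e-05), an increase of 5.9-fold with an interval of 3.97 to 8.78.

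Igfbp2 and Igfbp4, which encode other carriers of IGF1, both fell. Igfbp2 (chromosome 1, from 72824480 to 72852471) had an FPKM of 186, 182, and 242 in mice 2, 5, and 9, and of 304, 475, and 603 at the lowest, median, and highest control. Its level was 43.6% of the control mean (log2 fold change -1.18, SE 0.19, 95% interval -1.61 to -0.75, limma adjusted p = 0.000677). Igfbp4 (chromosome 11, from 99041260 to 99052643) had an FPKM of 338, 419, and 505 after anti-CD40, and of 600, 924, and 1289 at the lowest, median, and highest control. All treated values were below control mouse 4, the lowest control. The level was 43.8% of the control mean (log2 fold change -1.17, SE 0.22, 95% interval -1.67 to -0.67, limma adjusted p = 0.00174). Both lost the call when centred on hepatocyte markers, with log2 fold changes of -0.40 for Igfbp2 (adjusted p = 0.0659) and -0.39 for Igfbp4 (adjusted p = 0.0506).

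The opposite changes of Igfbp1 and Igfbp2 gave the largest difference among the 6 gene pairs. The log2 ratio of Igfbp1 to Igfbp2 was 2.77, 3.65, and 3.48 after anti-CD40 and -0.66 to -0.04 in controls, a 13.4-fold change of the ratio (difference 3.74, SE 0.24, exact permutation p = 0.0238, adjusted over the 6 pairs 0.0476). Every treated mouse was above all controls in Igfbp1 and below all controls in Igfbp2. The ratio therefore had to separate the groups, and its test adds nothing to the single-gene results.

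**Figure D2:**
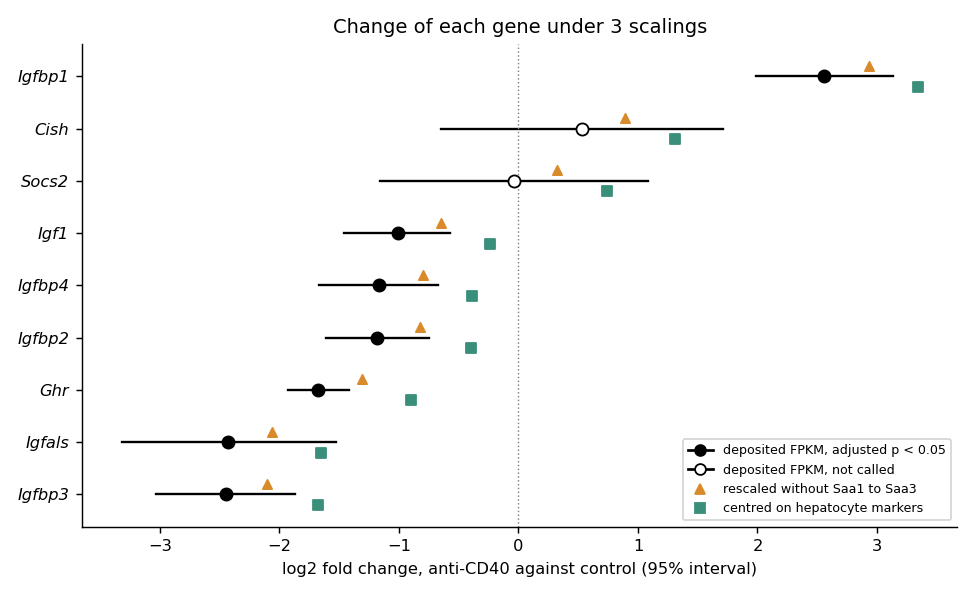
Log2 fold change of each gene, anti-CD40 against control, with its 95% interval from limma on the deposited FPKM as black lines and circles (filled, called; open, not called). Orange triangles show the value after leaving out Saa1 to Saa3 with rescaling and green squares the value after centring on hepatocyte markers, both of which move every gene to the right. Ghr, Igfals, Igfbp1, and Igfbp3 were called under all 3 scalings, Igf1, Igfbp2, and Igfbp4 lost the call under the last, and Socs2 turned from -0.04 to 0.32 and 0.74.

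Leaving out the Saa genes and centring on hepatocyte markers each shifted all 9 genes upward, whereas quantile normalization moved Ghr up to -1.35 and Igfbp3 down to -2.66. Both upward shifts take the mice away from the level median of the deposited values. Of these 2 scalings, leaving out the Saa genes is given first. The first moved the all-gene median to 0.35, and the log2 fold change of Ghr to -1.31, Igf1 to -0.65, Igfbp2 to -0.82, and Igfbp4 to -0.80, and the same 7 genes were called. Centring on hepatocyte markers gave -0.90 for Ghr, -1.65 for Igfals, -1.68 for Igfbp3, and 3.34 for Igfbp1, and these 4 were called. Over all genes the calls were 3240 higher and 2990 lower with the deposited values, 5593 and 1649 without the Saa genes, and 8403 and 675 after centring.

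The feedback genes of STAT5 had no difference between the groups that passed the test. Socs2, whose product limits growth hormone receptor signaling, lies on chromosome 10 from 95411490 to 95416857. Its FPKM was 23.1, 19.4, and 17 in mice 2, 5, and 9. Controls ran from 6.65 in mouse 8 to 46 in mouse 11, with a median of 18.5. The treated livers therefore sat inside the control range. The log2 fold change was -0.04 (SE 0.50, 95% interval -1.16 to 1.08, limma adjusted p = 0.956, exact permutation p = 1), an interval that still holds a fall as large as that of Igf1.

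Cish, the gene of the STAT5-induced inhibitor CIS, lies on chromosome 9 from 107296689 to 107301961. Its FPKM was 5.88, 5.86, and 6.48 in mice 2, 5, and 9, and 1.54, 4.61, and 10.9 at the lowest, median, and highest control. These correspond to 255, 239, and 246 reads in the treated mice and to 57 to 440 reads in controls, again the smallest whole numbers that fit. The log2 fold change was 0.53 (SE 0.53, 95% interval -0.65 to 1.71, limma adjusted p = 0.44, exact permutation p = 0.452). The annotation holds a model on the opposite strand and a pseudogene overlapping Cish, neither of which is in the table, and reads from them cannot be told apart where strand was not used.

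Controls differed from one another in these 2 genes more than treated mice did. The highest control was 6.92 times the lowest in Socs2 and 7.07 times in Cish, against 1.36 times and 1.11 times among the 3 treated mice. On the log2 scale the SD of Cish was 1.06 in controls and 0.08 after anti-CD40. The difference in spread was not tested. The control mice did not share an order in the 2 genes, since mouse 11 was highest in Socs2 and lowest in Cish, with a log2 ratio of Socs2 to Cish of 4.81, and mouse 4 was high in both. No difference of this ratio between the groups passed the test (difference -0.57, SE 0.82, exact permutation p = 0.667).

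Of the other SOCS genes in the receptor signaling list, Socs1 and Socs3, which respond to inflammatory cytokines as well as to growth hormone, rose, and Socs6 and Socs7 were not called (log2 fold changes 0.11 and -0.53, limma adjusted p = 0.453 and 0.075). The FPKM of Socs3 was 6.23, 7.38, and 8.15 in mice 2, 5, and 9, and 0.65 to 2.36 in controls, with a log2 fold change of 2.50 (SE 0.35, limma adjusted p = 0.00022). Socs1 rose by a log2 fold change of 2.69 (SE 0.36, limma adjusted p = 0.000169), from 0.931 to 3.49 in controls to 14.3, 11.3, and 8.08 in mice 2, 5, and 9. The products of both bind JAK kinases and block signaling from cytokine receptors. Within a mouse the log2 ratio of Socs3 to Socs2 was -1.88, -1.38, and -1.05 after anti-CD40 and -4.94 to -3.12 in controls. The rise of Socs3 over Socs2 was 5.81-fold (difference 2.54, SE 0.46, exact permutation p = 0.0238, adjusted over the 6 pairs 0.0476). Socs3 is also expressed by neutrophils and other infiltrating cells, whose markers rose beside it as given above. Their part in the results for Socs3 and Socs1 was not tested.

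**Figure D3:**
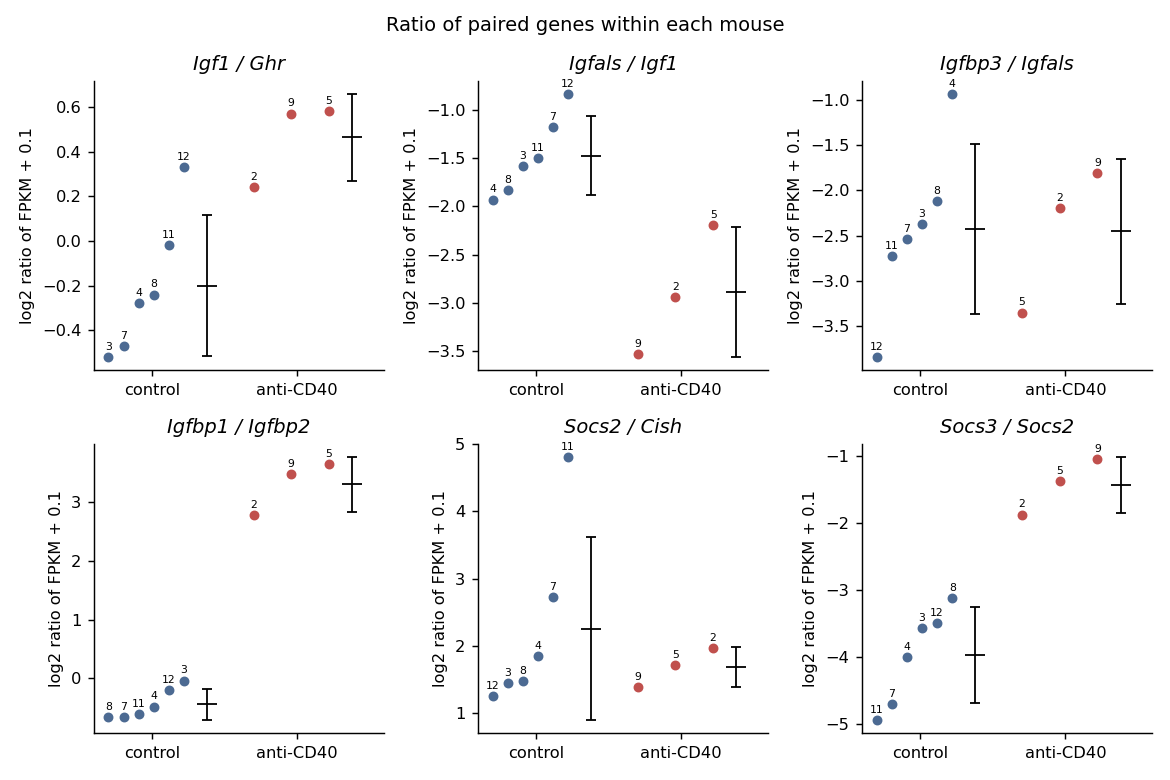
Log2 ratio of FPKM + 0.1 between the 2 genes of each of the 6 pairs within each liver. Blue points are the 6 control mice, red points the 3 anti-CD40 mice, numbered and sorted by value, and bars give the mean with the SD. The groups are apart for Igfals over Igf1, Igfbp1 over Igfbp2, and Socs3 over Socs2, and overlap for the other 3 pairs.

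The other genes of the pathway were read from lists. Of 21 genes of growth hormone receptor signaling, all tested, 11 were higher, 2 lower, and 8 not called, with a median log2 fold change of 0.58 against 0.0056 over all genes. The shares over all genes tested were 23.5% higher and 21.7% lower. The phosphatase genes Ptpn6 and Ptpn1, whose products remove phosphate from JAK kinases, rose by 1.56 (13.4 to 15.8 against 3.74 to 5.44 FPKM) and 1.27 (23 to 24.8 against 7.49 to 12.5 FPKM) on the log2 scale. Ptpn6 is mainly a gene of blood cells, whose markers rose beside it, and their part in the result was not tested. Stat3, which also serves IL-6 signaling, rose by 1.07. Irs1, an adaptor shared with the insulin receptor, fell from 4.17 to 8.84 FPKM in controls to 2.79 to 2.93 after anti-CD40, a log2 fold change of -1.14 (limma adjusted p = 0.00153) that was not called after centring on hepatocyte markers (-0.36, adjusted p = 0.343). Under that centring 17 of the 21 genes were higher and 0 lower, beside 8403 higher and 675 lower among all 13807 genes tested. The same centring moved the median of all genes to 0.78.

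Among 14 other genes of the IGF system, 10 passed the filter, of which 3 were higher, 2 lower, and 5 not called, with a median of -0.02. Over all genes 45.1% were called, 23.5% higher and 21.7% lower. Stc1, whose product inhibits the IGFBP proteases, had an FPKM of 0.497, 0.474, and 0.378 in mice 2, 5, and 9 and 0.0888 to 0.157 in controls, with groups apart (limma adjusted p = 0.000346). Adam12, a protease gene, was near the pseudocount, with a log2 fold change of 1.03 (limma adjusted p = 0.0121) that lost its call without anti-CD40 mouse 2 (adjusted p = 0.0649). The binding protein genes Igfbp6 and Igfbp5 had log2 fold changes of -1.54 and -1.40 (limma adjusted p = 0.0165 and 0.0447), with overlapping groups. Igfbp6 lost its call without anti-CD40 mouse 5 (adjusted p = 0.0654) or mouse 9 (adjusted p = 0.061), and Igfbp5 without any of the 3 treated mice (adjusted p = 0.102 to 0.121) or control mouse 3, 4, 7, or 8. The receptor genes Igf1r and Insr were not called, with log2 fold changes of 0.19 and -0.22. Without anti-CD40 mouse 2 the list had 1 higher and 1 lower gene, without mouse 5 or mouse 9 it had 0 lower, and without control mouse 3, 4, 7, or 8 it had 1 lower.

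Among hepatocyte genes that depend on the pattern of growth hormone release, all called genes were lower in both lists examined. Of 15 genes with higher expression in male mice, 13 passed the filter, 7 were lower, 0 were higher, and 6 were not called, with a median log2 fold change of -1.23. Over all genes tested 23.5% were higher and 21.7% lower. All 9 livers had the Xist and Y-linked values of female mice, as given above. Mup3, a major urinary protein gene, had an FPKM of 62.1, 106, and 61.7 in mice 2, 5, and 9 and 469 to 2271 in controls, a log2 fold change of -4.23 (limma adjusted p = 2.99e-05). Mup1 and Slco1a1, the gene of a bile acid and hormone transporter, had log2 fold changes of -4.82 and -4.21. Cyp7b1, an oxysterol hydroxylase gene, fell by 1.23 on the log2 scale with overlapping groups. Hsd3b5, a steroid dehydrogenase gene, and Mup7 were listed at 0.01 in all 3 treated mice, so no fold is given. In controls Hsd3b5 ran from 0.0691 to 6.45 and Mup7 from 0.117 to 0.448, and Hsd3b5 lost its call without any 1 of the treated mice (adjusted p = 0.104 to 0.11) and without control mouse 7, 8, 11, or 12 (0.0549 to 0.0762). The median without these 2 genes was -1.22. After centring on hepatocyte markers, 3 of the 13 were lower and 1 was higher, and Cyp7b1, Mup7, and Hsd3b5 were not called.

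Of 13 genes with higher expression in female mice, 11 passed the filter, 10 were lower, 0 were higher, and 1 was not called, with a median of -3.10. The share of all genes tested that were lower was 21.7%. Cyp2b13, a cytochrome P450 gene, had an FPKM of 1.81, 2.07, and 2.47 in mice 2, 5, and 9 against 55.2 to 151 in controls, a log2 fold change of -5.55 (limma adjusted p = 5.56e-07). Hao2, a peroxisomal oxidase gene, fell from 4.65 to 27.1 in controls to 0.147, 0.0522, and 0.14, a log2 fold change of -5.77 (limma adjusted p = 4.52e-06). The log2 fold changes were -5.05 for Cyp3a44, -4.57 for A1bg, and -4.16 for Sult3a1, the gene of a sulfotransferase. Cyp3a44 was at the floor of 0.01 in mice 5 and 9, so that its log2 fold change ran from -2.33 with a pseudocount of 1 to -7.09 with 0.01. Cyp3a16 was at the floor in all treated mice, without which the median was -3.63. With each mouse left out in turn, 10 or 11 genes were lower, and after centring on hepatocyte markers 9 were. Reads of the Mup, Cyp2b, Cyp3a, and Sult genes can be shared with close paralogs, so their levels are uncertain.

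Genes of insulin and FOXO1 action in the liver were examined because of Igfbp1. Of 13 listed, 12 passed the filter, 6 were lower, 0 were higher, and 6 were not called, with a median log2 fold change of -0.35. Over all genes 45.1% were called and 21.7% were lower. Srebf1, an insulin-induced lipogenic regulator listed at the same locus as 3 others, had a log2 fold change of -2.54. Pck1, which like Igfbp1 is induced by FOXO1 and held down by insulin, was lower: its FPKM was 487, 739, and 783 in mice 2, 5, and 9 and 770 to 2780 in controls, a log2 fold change of -1.25 (limma adjusted p = 0.0145) with overlapping groups. Its call was lost without anti-CD40 mouse 2 (adjusted p = 0.0782), with no filter (0.0584), with quantile normalization (-0.79, adjusted p = 0.109), and upon rescaling without the Saa genes (0.0533). Klf15, a glucocorticoid-induced factor of gluconeogenesis, fell by 1.26 on the log2 scale. Klf15 and Pck1 were not called after centring on hepatocyte markers, when 2 of the 12 genes were lower and 4 were higher.

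**Figure D4:**
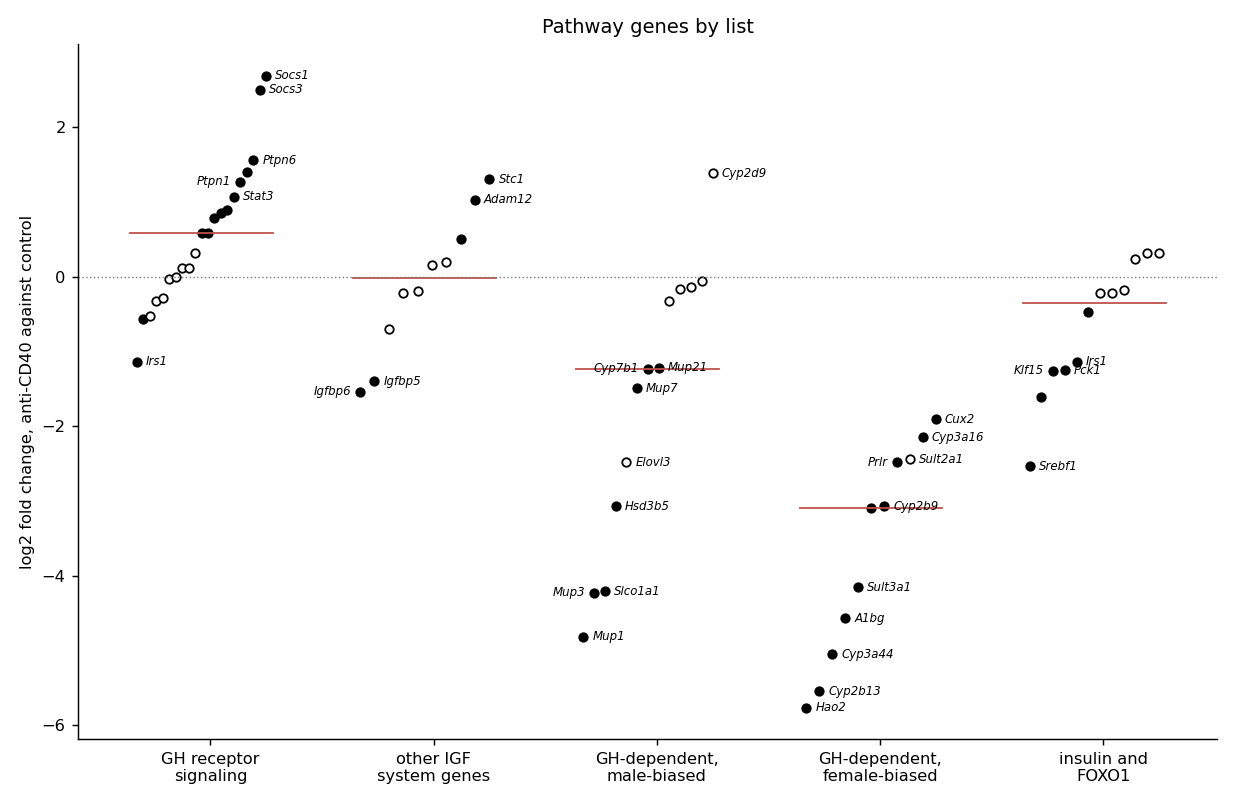
Log2 fold change, anti-CD40 against control, of the tested genes in the 5 pathway lists, sorted by value within each list. Each point is a gene (filled, adjusted p under 0.05 from limma; open, not called), red lines are list medians, and names are given for most genes with a log2 fold change of at least 1 in size. The points of Hsd3b5, Mup7, and Cyp3a16, at the floor in all treated mice, depend on the pseudocount. The medians ran from 0.58 in receptor signaling to -3.10 in the growth hormone-dependent female-biased list, on the deposited scale; after centring on hepatocyte markers every list had fewer lower calls.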

How the data were processed

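Liver RNA of 9 mice, 3 after anti-CD40 and 6 controls, was sequenced by the authors from the 3′ end (QuantSeq, NextSeq). The authors aligned reads to mm10 with STAR and deposited FPKM values from Cufflinks and Cuffdiff, with a floor of 0.01. The annotation, table filter, and strand setting are not given in the sources used here. Of the 24341 genes, 15 lacked an estimate in at least 1 mouse and were dropped.

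The FPKM were tested without further scaling as log2(FPKM + 0.1), for the 13807 genes whose FPKM averaged 0.1 or more. The model was limma's (version 3.58.1, R 4.3.3) with trended eBayes and no covariate, 2-sided, with Benjamini-Hochberg adjustment at 0.05. Single genes and log ratios of gene pairs were tested by exact permutation over all 84 splits. Other steps used Python 3.11.15 with pandas 2.3.3 and numpy 2.4.6, and figures matplotlib 3.10.9. The scripts were tested on simulated data.

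Whole numbers of reads (tolerance 0.05, up to 1000 reads) fitted 8467 of 11466 genes (73.8%) under an FPKM of 40, among them Igfbp3 and Cish. No count test was run. Absolute depth is unknown. Each sample is 1 mouse of 1 experiment.

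The 9 genes, the 5 pathway lists, and the marker lists were chosen from general knowledge with earlier results of these data known. Named genes are the 9, Jak2, Stat5a, Stat5b, and Socs3, and list genes called with a log2 fold change of at least 1 in size, up to 6 per direction and list, of which a few are not reported here. Igf1r, Insr, Socs6, Socs7, Cyp3a16, and the marker and sex-linked genes were named after their values were seen. Starts are counted from 1. Alternatives changed the pseudocount, filter, scaling, variance model, weights, or mice. Counts over the lists under these alternatives were added after the data were seen.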

Additional observations from a re-analysis of the deposited data

Results flagged for a closer look

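In 45 results the 6 control mice were checked for a mouse apart, meaning that its gap to its neighbor, as a share of the control range, exceeded Dixon's 95% critical value. This was so in 5, and about 2.25 would arise by chance. Mouse 12 was highest and apart in Igfals (0.639 of the range, FPKM 110), in Igfbp1 (0.734, FPKM 525), and in Stat3 (0.655, FPKM 68.2). Control mouse 4 was apart in Igfbp3 (0.749, FPKM 17.5), and control mouse 7 in Cyp3a44 (0.812, FPKM 19.3). Igfals, Igfbp1, Igfbp3, Stat3, and Cyp3a44 kept their calls with any 1 mouse left out.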

How the results depend on the processing

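The 7 called members kept their direction under every alternative run, and 7 members were called in all of them except centring on hepatocyte markers, where 4 were called and Igf1 (-0.24, adjusted p = 0.221), Igfbp2 (-0.40, adjusted p = 0.0659), and Igfbp4 (-0.39, adjusted p = 0.0506) were not. That centring made 8403 genes higher and 675 lower and reversed Stat5a (0.45, adjusted p = 0.0429) and Stat5b (0.21, adjusted p = 0.476). Rescaling without Saa1 to Saa3 made 5593 higher and 1649 lower. These shifts follow from the added scale, which moved the median of all genes to 0.7827 and 0.3456. With each mouse left out, 4875 to 6808 genes were called (2539 to 3539 higher, 2336 to 3269 lower) and 7 members. The log2 fold changes ran from -1.74 to -1.64 for Ghr, -1.13 to -0.86 for Igf1, -2.81 to -2.20 for Igfals, 2.34 to 2.89 for Igfbp1, -1.31 to -1.10 for Igfbp2, -2.57 to -2.27 for Igfbp3, -1.31 to -1.02 for Igfbp4, -0.36 to 0.20 for Socs2, and 0.26 to 0.81 for Cish. Differences ran from -1.76 to -1.09 for Igfals over Igf1, 3.57 to 4.01 for Igfbp1 over Igfbp2, 2.34 to 2.76 for Socs3 over Socs2, 0.60 to 0.78 for Igf1 over Ghr, -0.35 to 0.42 for Igfbp3 over Igfals, and -0.78 to -0.06 for Socs2 over Cish. With 8 mice there are fewer splits, and no pair difference reached an adjusted p under 0.05 (lowest 0.0536). Among the other named genes, apart from the 2 reversals above, calls were lost in 18 fits without a mouse and 22 other fits, and 2 were gained. No paired analysis was possible because the groups share no mouse numbers. Depth limits the genes near the floor, such as Adam12 and Hsd3b5.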
